A study of Homo sapiens with 6 samples.

Results

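RNA-seq of NCI-H660, an established human cell line derived from neuroendocrine prostate cancer (NEPC), was examined for 9 genes of the Hedgehog pathway. These were the ligands *SHH* and *DHH*, the receptors and inhibitors *PTCH1*, *SMO*, *HHIP* and *SUFU*, and the transcription factors *GLI1*, *GLI2* and *GLI3*. All 9 were found by symbol among the 17177 genes of the deposited table. The cells were labelled WT and were treated with pyrvinium pamoate (PP), an anthelmintic drug that the study used against the RNA-binding protein ELAVL3, or with PBS as the control. Each treatment had 3 libraries taken on day 3, and the concentration of PP for these cells is not given in the sources used here. The labels do not say whether the 3 libraries came from separate cultures. A legend of the study calls them independent samples, while its methods give another number of replicates, so P values measure the spread between these libraries, which may be technical. All samples were of this 1 line in culture, with no stromal cells to signal to.

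In the Hedgehog pathway a secreted ligand binds PTCH1 at the primary cilium and releases SMO from inhibition. Active SMO frees the GLI proteins from SUFU, and GLI factors then switch on target genes, among which *GLI1*, *PTCH1* and *HHIP* themselves serve as readouts of the pathway. In the prostate, the pathway shapes the growing epithelium through signals between epithelium and stroma. The comparison of PP with PBS asked whether the RNA of these genes changed with the drug. From RNA-seq of NCI-H660 with PP or PBS, the study proposes that PP suppressed several pathways, Hedgehog among them. It used gene set enrichment, which weighs a whole set of genes rather than single members, and that was not repeated here.

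The recovered number of counts per library ran from 29064253 to 32481171. Levels are given as FPKM, fragments scaled to gene length and to library size, which can be compared between genes, and the whole number of counts behind a value is given where it is low. The label of the line was checked against marker genes. Of 10 neuroendocrine markers, 8 had a mean FPKM of at least 1, and *CHGA*, a protein of secretory granules, was at 43.3 with PBS and 24.8 with PP. Of 7 luminal epithelial markers, 0 had a mean of at least 1. The summed FPKM of 8 fibroblast markers was 4.10 to 4.54 with PBS and 4.50 to 4.92 with PP, and 1 of them, *COL1A1*, had a mean of at least 1. Of 6 immune markers, 2 had a mean of at least 1, *CD14* and *CD68*, and the list summed to 2.77 to 3.42 FPKM with PBS and 2.17 to 3.05 with PP. Its defining marker *PTPRC* stood at or under 0.0204 FPKM. The 5 endothelial markers summed to 4.30 to 4.77 FPKM with PBS and 2.98 to 3.38 with PP, mostly from *CDH5*. The summed FPKM of 4 basal epithelial markers was 199 to 204 with PBS and 44.3 to 47.4 with PP. *KRT15* made up nearly all of that sum.

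Promoter windows are shown for *PTCH1*, since it is the textbook readout of GLI activity, and for *SMO*, the member with the largest fall below. The 250 bases before each start listed by RefSeq on GRCh38.p14 were searched for the GLI consensus TGGGTGGTC and its reverse complement GACCACCCA. The table held 12 windows for 7 of the members, and 1 window, of *PTCH1*, had a match. *GLI1* and *GLI3* had no entry. Over all 35116 promoter windows, 0.199% had a match. Capitals mark the match, which begins 172 bases before the start of transcription at 1 of 5 starts listed for *PTCH1*. The windows of a pair of these starts overlap by some bases. A match is a description of letters, not of binding.

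*PTCH1*, chr9:95509267-95509516, minus strand: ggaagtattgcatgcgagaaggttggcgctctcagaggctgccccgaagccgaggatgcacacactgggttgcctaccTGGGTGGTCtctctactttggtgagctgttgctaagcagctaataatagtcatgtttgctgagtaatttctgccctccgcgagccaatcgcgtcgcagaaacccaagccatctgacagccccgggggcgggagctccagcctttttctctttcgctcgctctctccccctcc
*SMO*, chr7:129188383-129188632, plus strand: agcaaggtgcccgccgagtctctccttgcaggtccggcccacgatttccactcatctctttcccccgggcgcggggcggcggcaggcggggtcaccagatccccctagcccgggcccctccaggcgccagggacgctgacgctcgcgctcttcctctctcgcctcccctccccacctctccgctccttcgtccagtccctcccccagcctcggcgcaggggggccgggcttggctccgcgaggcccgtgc

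The G and C content was 57.2% in this *PTCH1* window and 73.6% in the *SMO* window, against a median of 58.0% over all windows. No match in the *SMO* window says only that these letters are not in it.

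With PP, *SMO* fell and *GLI1* rose, *SUFU* was slightly lower, and *PTCH1* did not pass the test. The mean FPKM of *SMO* was 3.47-fold lower and that of *GLI1* 6.76-fold higher with PP. The other 5 members, *DHH*, *GLI3*, *HHIP*, *SHH* and *GLI2*, had means under 0.1 FPKM and were not tested. Differences were tested with limma on the log2(FPKM + 1) scale, with P values adjusted over all genes. *PTCH1* and *SUFU* passed the filter of a mean FPKM of at least 1, over 11726 genes. *SMO* and *GLI1* did not, and were read from a second fit over the 13771 genes with a mean of at least 0.1.

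In the first fit, 38.1% of all genes were higher and 34.4% were lower with PP at an adjusted p under 0.05. In the second fit these shares were 34.4% and 32.4%. Of the 4 members tested, 1 was higher, 2 were lower and 1 was not past the threshold. With such shares over all genes, these counts do not set the members apart from the other genes.

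**Figure D1:**
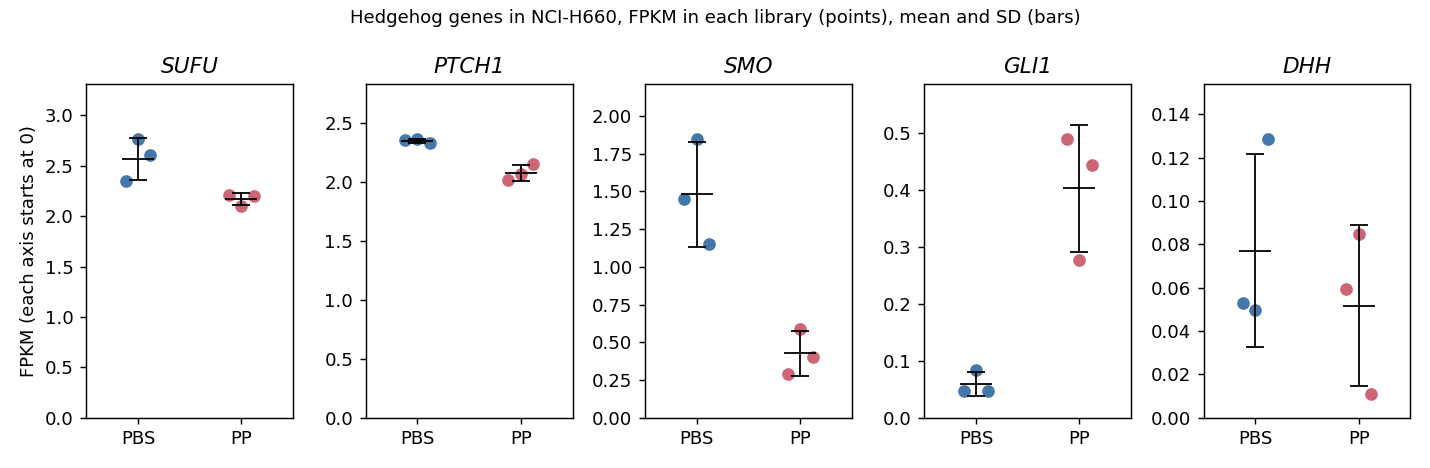
FPKM of 5 members (vertical axes, each from 0) in the 3 PBS and 3 PP libraries, with points for libraries and bars for the mean and SD. *SMO* lies lower and *GLI1* higher in every PP library than in any PBS library, *SUFU* and *PTCH1* are lower by a small margin, and the libraries of *DHH* overlap.

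*SMO* (RefSeq gene 6608, chromosome 7 from 129188633 to 129213545) encodes the membrane protein that carries the signal from PTCH1 into the cell. Its FPKM was 1.45, 1.85 and 1.15 in the PBS libraries and 0.293, 0.588 and 0.402 in the PP libraries. Every PP library was below every PBS library, as were 34.2% of the 13771 genes of the second fit. The PBS mean was 1.48 ± 0.349 (SD, n = 3) on 172 to 259 counts. The PP mean was 0.427 ± 0.149 (SD, n = 3) on 43 to 85 counts. On the log2 scale *SMO* changed by -0.79 (limma, standard error 0.11, adjusted p = 0.000163). The pseudocount of 1 understates changes at this level, and on the recovered counts limma-voom gave a log2 fold change of -1.81 (standard error 0.26, adjusted p = 8.46e-07). The mean of *SMO* over the 6 libraries, 0.954 FPKM, was just under the filter of the first fit.

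*SUFU* (RefSeq gene 51684, chromosome 10 from 102502819 to 102633535) encodes the cytoplasmic protein that holds GLI factors in check. Its FPKM was 2.35, 2.76 and 2.60 with PBS and 2.21, 2.10 and 2.20 with PP. Every PP library was below every PBS library, as in 34.2% of the 13771 genes of the second fit. The lowest PBS library was close to the highest PP library. The means were 2.57 ± 0.210 (SD, n = 3) and 2.17 ± 0.0625 (SD, n = 3), with 397 to 509 counts in each library. *SUFU* had a log2 fold change of -0.17 in limma (standard error 0.07, adjusted p = 0.042). This call was lost with the replicate number as a block (adjusted p = 0.0702), with no filter (adjusted p = 0.0559), and when any 1 library other than PBS replicate 1 was left out (adjusted p from 0.0664 without PP replicate 1 to 0.151 without PBS replicate 2). *ACTR1A*, whose start lies 106 bases before *SUFU* on the other strand, had a mean FPKM of 29.4 with PBS and 20.5 with PP, and its part in the *SUFU* values was not tested.

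*PTCH1* (RefSeq gene 5727, chromosome 9 from 95442980 to 95516971) encodes the receptor that restrains SMO and is itself a target of GLI. Its FPKM was 2.36, 2.36 and 2.33 with PBS and 2.02, 2.07 and 2.15 with PP. The PP libraries all lay below the PBS libraries, as in 34.2% of the 13771 genes of the second fit, and the margin was small. The means were 2.35 ± 0.0174 (SD, n = 3) and 2.08 ± 0.0706 (SD, n = 3), with 610 to 720 counts in each library. For *PTCH1*, limma gave a log2 fold change of -0.12 (standard error 0.06, 95% interval -0.26 to 0.01), which did not pass the threshold (adjusted p = 0.0915). The threshold was passed with limma-voom on the recovered counts, where the log2 fold change was -0.18 (adjusted p = 0.0472), and without the intensity trend (adjusted p = 0.0234). *HHIP*, the decoy receptor that binds the ligand and is another GLI target, was at 0 in 5 libraries. It was at 0.00307 FPKM, recovered as 1 count, in PP replicate 3.

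**Figure D2:**
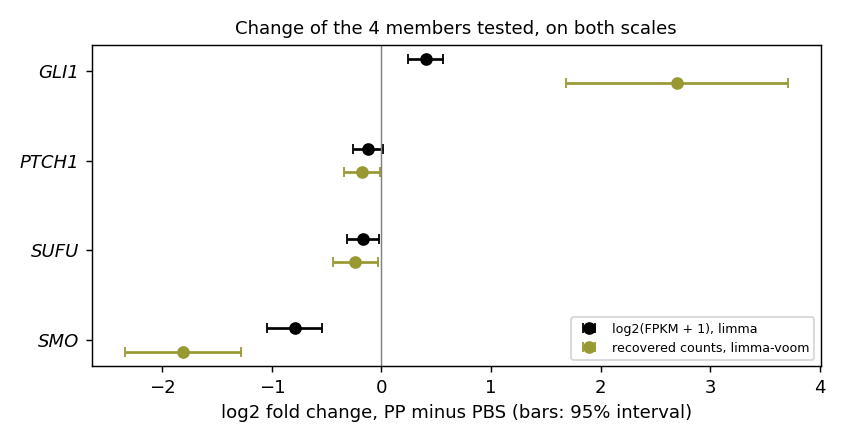
Log2 fold change of the 4 members tested, PP minus PBS, with 95% intervals, from limma on log2(FPKM + 1) and from limma-voom on recovered counts. *GLI1* is above 0 and *SMO* and *SUFU* below 0 on both scales, the *PTCH1* interval reaches 0.01 on the first scale, and the changes of *GLI1* and *SMO* are larger on the count scale.

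*GLI1* (RefSeq gene 2735, chromosome 12 from 57459785 to 57472268) encodes the GLI factor that acts as an activator. Its FPKM was 0.0477, 0.0840 and 0.0473 with PBS and 0.489, 0.277 and 0.443 with PP. All PP libraries were above all PBS libraries, as were 36.6% of the 13771 genes. These values rest on 6, 10 and 6 counts per PBS library and on 61, 34 and 59 counts per PP library. The means were 0.0596 ± 0.0211 (SD, n = 3) and 0.403 ± 0.112 (SD, n = 3). *GLI1* entered the second fit through its PP libraries, since its PBS mean was under the filter of 0.1, so this choice favoured a difference and the test is no independent support for it. On the log2(FPKM + 1) scale *GLI1* rose by 0.40 (limma, standard error 0.07, adjusted p = 0.000858), and in a fit with no filter on the mean its adjusted p was 0.00138. On the recovered counts it was 2.70 (standard error 0.49, adjusted p = 2.93e-05 from limma-voom).

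The neighbour of *GLI1* on chromosome 12 moved with it. *INHBE*, which encodes an inhibin subunit and was picked here after its values were seen, lies from 57455307 to 57458025 on the same strand and ends 1759 bases before *GLI1*. Its FPKM was 10.8, 11.1 and 11.5 with PBS and 79.0, 79.8 and 74.6 with PP, so the mean was 6.98-fold higher with PP. Its log2 fold change was 2.70 in limma (standard error 0.04, adjusted p = 4.18e-11). The FPKM of *GLI1* was 0.442%, 0.753% and 0.410% of that of *INHBE* in the PBS libraries, and 0.619%, 0.347% and 0.594% in the PP libraries. These shares overlapped between the treatments. RefSeq also lists a long non-coding gene, LOC124902947, from 57457442 to 57462972, which lies on the opposite strand in RefSeq, covers the end of *INHBE* and the start of *GLI1*, and was not analysed here. On the other side, *ARHGAP9* had a mean FPKM of 0.328 with PBS and 0.389 with PP. Whether reads from *INHBE* or LOC124902947 were counted for *GLI1* was not tested.

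The other GLI factors were almost absent from the counts. *GLI2*, which acts mainly as an activator, was listed at 0 in all 6 libraries. A count of 0 allows up to 3 counts, or 0.0924 to 0.103 CPM (counts scaled to library size) depending on the library, for counting error only. *GLI3*, which is mainly processed to a repressor, had 1 count in PBS replicate 1, 1 count in PP replicate 3 and 0 in the others. No change of these genes was detectable at this depth.

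Ligand RNA was at or near 0 as well. *SHH* was above 0 only in PBS replicate 3, at 0.00607 FPKM, recovered as 1 count. *DHH* was at 0.0530, 0.0498 and 0.128 FPKM with PBS and at 0.0594, 0.0845 and 0.0111 with PP, from 9, 8 and 22 and from 10, 14 and 2 counts. The libraries of *DHH* overlapped. *IHH*, the third ligand, had 8, 4 and 1 counts with PBS and 2, 1 and 0 with PP, and was too low to be tested.

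By level, the order of the members with PBS was *SUFU* and *PTCH1*, whose libraries overlapped, then *SMO*, then *DHH* and *GLI1*, whose libraries also overlapped. With PP, *SUFU* and *PTCH1* again overlapped, and *GLI1* at 0.403 FPKM overlapped with *SMO* at 0.427 FPKM, above *DHH* at 0.0517 FPKM. The FPKM of *GLI1* was 0.0329, 0.0455 and 0.0411 of that of *SMO* in the PBS libraries and 1.67, 0.471 and 1.10 of it in the PP libraries. The FPKM of *SUFU* was 0.995 to 1.17 of that of *PTCH1* with PBS and 1.02 to 1.10 of it with PP, so this ratio overlapped.

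By their pattern over the 6 libraries on the log2(FPKM + 1) scale, the genes most like *PTCH1* were *PLOD2* (Pearson r = 0.999), *CXXC4* (0.999) and *PIP5K1B* (0.998). Those most like *SUFU* were *WWP2* (0.991), *SHROOM2* (0.988) and *KCNJ11* (0.988). They were the closest among the genes of the first fit, and the 6 points behind each value share the split by treatment.

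The rest of the pathway was described from a list of 92 other genes in 5 roles, of which 69 had a mean FPKM of at least 1. At an adjusted p under 0.05, 24 were higher, 32 were lower and 13 were not past the threshold, where 38.1% of all genes tested were higher and 34.4% were lower. The median log2 fold change was -0.07, against 0.02 over all genes tested.

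Among genes for the ligand, its release and its binding at the cell surface, 0 of 7 tested were higher and 6 were lower (38.1% and 34.4% of all genes), with a median log2 fold change of -0.64. The lowest were the glypicans *GPC3*, a cell surface proteoglycan that can bind Hedgehog ligand (-1.02, standard error 0.04, adjusted p = 7.38e-09 from limma), and *GPC6* (-0.98). *GPC3* had a mean FPKM of 46.0 with PBS and 22.2 with PP. *HHAT*, which attaches palmitate to the ligand, was at 3.74 and 2.05 FPKM, with a log2 fold change of -0.64 (adjusted p = 4.22e-05 from limma). *DISP1*, which releases the ligand from its cell, was at 2.63 and 2.62 FPKM and did not pass the test (adjusted p = 0.989). *HHAT* and *DISP1* were picked after their values were seen. Among the lower genes, *SCUBE1* had a mean FPKM of 1.42 with PBS and 0.616 with PP, and *DISP2* 1.49 and 0.957. Both passed the filter of 1 only through their PBS libraries. Their calls were therefore favoured and are no independent support for a fall.

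Among coreceptors and related genes, both genes tested were lower, as were 34.4% of all genes. *CDON*, a coreceptor for the ligand, was at 7.06, 6.90 and 6.58 FPKM with PBS and at 4.42, 5.09 and 4.31 FPKM with PP. Its PP libraries all lay below its PBS libraries, as in 34.2% of the 13771 genes of the second fit. For *CDON*, limma gave a log2 fold change of -0.49 (standard error 0.06, adjusted p = 6.65e-05). *DHCR7*, the last enzyme of cholesterol synthesis, whose product modifies the ligand and binds SMO, had a log2 fold change of -0.18.

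In the second fit *BOC*, the coreceptor related to CDON, was also lower, with a log2 fold change of -0.40 (adjusted p = 0.00103 from limma). *BOC* was at 0.592, 0.855 and 0.680 FPKM with PBS and 0.337, 0.228 and 0.310 with PP. *GAS1*, a further coreceptor, had 2, 0 and 1 counts with PBS and 10, 4 and 14 with PP, and its mean was under the limit for a test.

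Of 23 tested genes that relay the signal at SMO and the cilium, 7 were higher, 11 were lower and 5 were not past the threshold (over all genes, 38.1% higher and 34.4% lower), with a median of -0.16. Among those higher was *INPP5E*, a ciliary lipid phosphatase (0.52, adjusted p = 1.10e-06 from limma). The lowest were *GPR161*, a ciliary receptor that restrains the pathway (-0.93, adjusted p = 1.96e-07), and *IFT122*, a subunit of the transport complex that returns cargo from the cilium (-0.66). *GPR161* had a mean FPKM of 16.1 with PBS and 7.93 with PP.

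Of 22 tested kinases, ubiquitin ligases and repressors that act on GLI, 13 were higher, 3 were lower and 6 were not past the threshold, with a median of 0.17. Over all genes the shares were 38.1% higher and 34.4% lower. *ZIC2*, a zinc finger factor related to GLI, rose from a mean FPKM of 8.95 to 20.6, with a log2 fold change of 1.12 (standard error 0.06, adjusted p = 5.00e-08 from limma). The catalytic subunits of protein kinase A, which marks GLI proteins for processing, went in opposite directions. *PRKACB* rose by 0.60 (adjusted p = 1.05e-05 from limma) and *PRKACA* fell by 0.34 (adjusted p = 0.000158 from limma) on the log2 scale. *CSNK1G2*, a casein kinase, had a log2 fold change of -0.30. *CSNK1A1*, the casein kinase described as a target of pyrvinium and picked after its values were seen, had a mean FPKM of 41.1 with PBS and 52.9 with PP (log2 fold change 0.36, adjusted p = 6.10e-06 from limma).

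**Figure D3:**
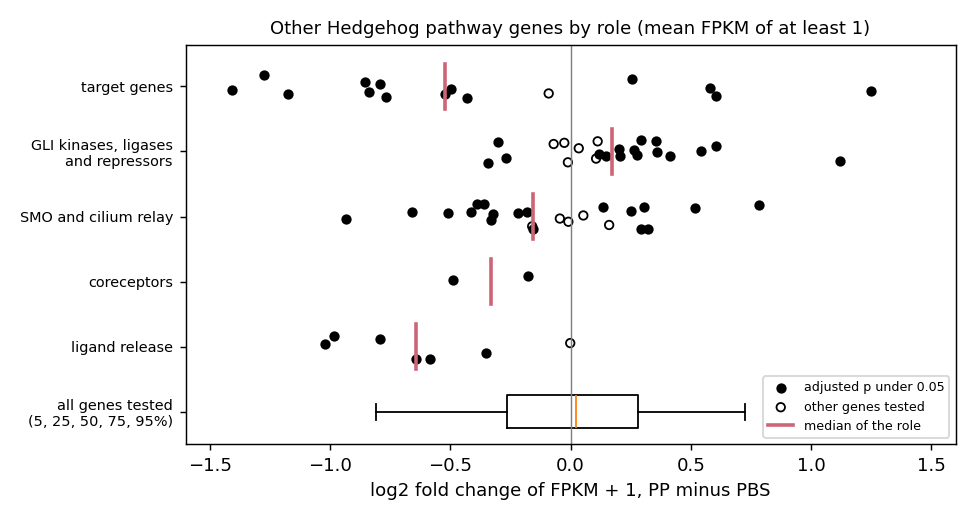
Log2 fold change, PP minus PBS, of the 69 other pathway genes tested (points, filled where the adjusted p was under 0.05) by role, with the median of each role, with a box plot of all genes tested. The median is lowest for ligand release at -0.64 and highest for GLI kinases, ligases and repressors at 0.17.

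Of 28 genes listed as Hedgehog targets, 15 were tested, 4 were higher, 10 were lower and 1 was not past the threshold (over all genes, 38.1% higher and 34.4% lower), with a median of -0.52. The lowest were *IGFBP6* (-1.41, adjusted p = 7.50e-06 from limma), which binds insulin-like growth factors, and *NKX2-1*, a transcription factor of lung and forebrain (-1.28, adjusted p = 5.66e-10). *NKX2-1* had a mean FPKM of 224.0 with PBS and 92.0 with PP. The highest were *GREM1*, an antagonist of bone morphogenetic proteins (1.25, adjusted p = 7.07e-08), at 1.01 and 3.77 FPKM, and *NKX6-1*, a transcription factor of the ventral neural tube (0.60). These genes have other regulators too, and the list was written with results of these data known. *CDK6*, 1 of the higher genes, had a mean FPKM of 0.789 with PBS and 1.68 with PP. It passed the filter of 1 only through its PP libraries, so its call was favoured and is no independent support for a rise. In the same libraries, of the 8 neuroendocrine markers tested, 1 was higher, 5 were lower and 2 were not past the threshold, with log2 fold changes of 0.21 for *INSM1* and -0.78 for *CHGA*. *KRT15* had a log2 fold change of -2.11. The part of such shifts in the pathway genes was not tested.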

How the data were processed

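Total RNA of NCI-H660 cells (PP and PBS, 3 libraries each, day 3) was made into libraries with a stranded mRNA kit and sequenced. The authors deposited 1 FPKM value per gene symbol and library. The sources differ on how it was made: the submitters' processing notes name fastp, HISAT2, HTSeq and GRCh38, and the paper's methods name Bowtie, hg19, RSEM, Cufflinks and HTSeq. The strand setting of the counting is not given in the sources used here. Positions here are those of RefSeq on GRCh38.p14 and strands those of GENCODE, or of RefSeq for LOC124902947 and the promoter windows. They describe the genes and were not used to make values.

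Values were whole multiples of a step per gene and library, so counts were recovered for all 17177 genes (tolerance 0.01 of a count). Recovered counts are the smallest whole numbers that match the values. A gene above 0 in only 1 library is therefore given 1 count, whatever its true count. Of these genes, 268 were at 0 throughout. Differences were fitted as PP minus PBS on log2(FPKM + 1) with limma 3.58.1 in R 4.3.3 (eBayes with a trend), keeping genes whose mean FPKM reached 1 and, in a second fit, 0.1, with Benjamini-Hochberg adjustment. Members with a mean under 0.1 got no test. Recovery used Python 3.11.15. The recovery of counts and the first limma fit were tested on simulated data. The other steps, limma-voom among them, were not. Alternatives changed the pseudocount (0.1), the filter, the scaling, the trend, the libraries and the block, and used limma-voom on the recovered counts. Named genes were the members, the 2 highest and 2 lowest called genes of each role, 4 further coreceptors and ligands, and the 3 genes most like *PTCH1* and *SUFU*. *EVC2* was not analysed here, and some named genes are not reported here. The members, lists and rules were chosen with earlier results of these data known. With 3 libraries per treatment, an exact permutation test could not reach 0.05, so none was used.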

Additional observations from a re-analysis of the deposited data

How the results depend on the processing

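*SMO* (log2 fold change -1.81 to -0.69) kept its direction and an adjusted p under 0.05 in all 12 alternatives that gave a value, with limma-voom on the recovered counts at the far end. *GLI1* ran from 0.36 to 2.70. It passed the filter of the second fit only through its PP libraries, and 11 of its 12 alternatives share that filter. The other, with no filter, gave 0.40 (adjusted p = 0.00138 from limma). *SUFU* kept its direction (-0.24 to -0.13). It was no longer past the threshold with no filter (-0.17, adjusted p = 0.0559) or with the replicate block (-0.17, adjusted p = 0.0702), and leaving out each library in turn gave -0.22 to -0.13, with the call kept only without PBS replicate 1. *PTCH1* (-0.18 to -0.11) passed the threshold with eBayes without a trend (-0.12, adjusted p = 0.0234) and with limma-voom on recovered counts (-0.18, adjusted p = 0.0472), but not with any library left out (-0.14 to -0.11). The cause was not tested. No member had a mean FPKM of at least 5, so that filter gave no value for them.

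In the list of other pathway genes, that filter left 2 lower genes for ligand release and 0 higher targets, since it tests fewer genes. With no filter there were 1 higher and 4 lower coreceptor genes and 7 higher targets, since more genes are tested. *DISP1*, near 0 throughout, ran from -0.056 to 0.055 with a library left out, and was above 0 without PBS replicate 3, PP replicate 1 (0.0060) or PP replicate 3 (0.012). Over all genes, 3529 to 4620 were higher and 3031 to 4415 were lower. The replicate numbers did not pair the libraries (correlation of deviations -0.21, -0.01 and -0.13 for numbers 1, 2 and 3). With the replicate block 4260 genes were higher and 3878 were lower, against 4464 and 4032. Counts of 6 to 10 per PBS library limit the fold change of *GLI1*.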
